A study of Mus musculus with 24 samples.

Results

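Genes of the fibroblast matrix and the mesenchymal cell state were followed across 8 groups of mouse embryonic stem cells and embryoid bodies. The list held 36 gene symbols, chosen by name and role: collagens and the enzymes that cross-link them, elastic fibre, proteoglycan and matricellular genes, proteases and their inhibitor, surface and contractile genes, transcription factors, a chemokine and Medag. Of these, 34 had a probe set that named them alone and were measured, among 19938 genes measured in all. The only probe set for Loxl2 also names Gm21451, and Fbn1 has no listed probe set, so neither was analysed here. Lum and Postn lay among the dimmest 25% of all genes.

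The cells were D3, a mouse embryonic stem cell line, in which Prmt1, the main protein arginine methyltransferase for asymmetric dimethylarginine, had been knocked down (siPRMT1), with a line carrying a scrambled sequence as the control (siSCR). Each line was sampled undifferentiated, as embryoid bodies at day 4 of aggregation without LIF, and as embryoid bodies given 12 h of DMSO, the vehicle, or 12 h of all-trans retinoic acid (ATRA, 5 µM). Every group had 3 biological replicates, 1 Affymetrix whole-transcript array each, and the values are log2 expression values as the authors deposited them. The labels say that feeder cells were removed by at least 3 passages on plates coated with 0.1% gelatin. They do not say whether each line is 1 clone, whether the replicates were separate cultures, or on what day the treatment began, so the p-values measure only the spread between these samples.

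Fibrillar collagens form the tensile fibres of connective tissue, lysyl oxidases cross-link them, and fibulins, proteoglycans and matricellular proteins organise the matrix around the cells. Twist1, Twist2 and Prrx1 are transcription factors of the mesenchymal lineage, and Thy1, Pdgfrb, Vcam1 and S100a4 are widely used to mark fibroblasts and stromal cells. Embryonic fibroblasts are also the usual feeder layer for embryonic stem cells, and they express most of these genes at high levels.

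The members that were furthest apart between the undifferentiated siPRMT1 and siSCR cells were Mmp3, Ccl2, S100a4, Prrx1, Efemp1 and Acta2. The 250 bases before the transcription start are shown for the 5 of them with an entry in RefSeq's promoter table (GRCm38.p6) because these members were lower together. Ccl2 had no entry there. Mmp3 lies at chr9:7445572-7445821 on the + strand, S100a4 at chr3:90603520-90603769 on the + strand, Prrx1 at chr1:163313651-163313900 on the - strand, Efemp1 at chr11:28852955-28853204 on the + strand and Acta2 at chr19:34255374-34255623 on the - strand. Each is written 5′ to 3′ in the direction of the gene, and capitals mark matches to TGAGTCA, the AP-1 motif, and TATAAA, the TATA box.
Mmp3: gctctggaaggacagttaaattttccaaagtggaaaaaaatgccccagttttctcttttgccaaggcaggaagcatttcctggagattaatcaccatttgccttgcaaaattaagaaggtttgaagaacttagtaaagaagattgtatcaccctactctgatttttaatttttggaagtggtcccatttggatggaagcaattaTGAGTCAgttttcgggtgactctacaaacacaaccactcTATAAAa
S100a4: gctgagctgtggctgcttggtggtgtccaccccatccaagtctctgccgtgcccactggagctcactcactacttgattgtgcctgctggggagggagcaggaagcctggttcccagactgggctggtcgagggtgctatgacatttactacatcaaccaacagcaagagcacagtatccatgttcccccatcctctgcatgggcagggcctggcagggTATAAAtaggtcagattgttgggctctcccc
Prrx1: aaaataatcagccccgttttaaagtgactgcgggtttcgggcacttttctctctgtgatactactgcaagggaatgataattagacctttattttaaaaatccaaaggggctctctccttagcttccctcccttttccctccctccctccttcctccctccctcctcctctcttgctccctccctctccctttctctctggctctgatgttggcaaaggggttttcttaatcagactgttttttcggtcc
Efemp1: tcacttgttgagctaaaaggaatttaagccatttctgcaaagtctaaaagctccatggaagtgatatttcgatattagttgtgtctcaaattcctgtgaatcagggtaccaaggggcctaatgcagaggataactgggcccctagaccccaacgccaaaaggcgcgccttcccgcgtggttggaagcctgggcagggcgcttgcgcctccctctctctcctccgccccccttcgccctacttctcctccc
Acta2: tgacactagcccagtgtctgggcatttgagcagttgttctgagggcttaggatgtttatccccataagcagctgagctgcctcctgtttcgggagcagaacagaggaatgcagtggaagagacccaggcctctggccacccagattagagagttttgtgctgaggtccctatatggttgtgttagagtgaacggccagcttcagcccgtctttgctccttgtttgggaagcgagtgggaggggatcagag
Both motifs were searched on both strands of the same window in all 32851 promoters of the table, and they share no overlap. TGAGTCA was in 4.46% of all promoters and in 2 of the 26 listed for 21 of the members, those of Mmp3 and Col6a1. TATAAA was in 12.4% of all promoters and in 7 of the 26. In the promoter of Mmp3, the stromelysin gene, TGAGTCA stood at -46 to -40 and TATAAA at -7 to -2 from the start. In that of S100a4 TATAAA stood at -31 to -26. The promoters of Prrx1, Efemp1 and Acta2 held neither run of letters in this window.

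Prmt1 itself was lower in the siPRMT1 arrays in every state. In the undifferentiated cells the siSCR arrays read 11.07, 10.95 and 11.10 and the siPRMT1 arrays 9.79, 9.62 and 9.60, a log2 difference of -1.37 (SE 0.061, limma adjusted p = 1.26e-11). The difference was -0.63 at day 4, -1.11 after DMSO and -1.45 after ATRA, with no overlap of arrays in any state (exact two-sided permutation p = 0.1 each, the smallest that 3 against 3 arrays allow). At day 4 the knockdown was the smallest of the 4 states. Array medians ran from 7.47 to 7.67. The 6 siSCR arrays of the DMSO and ATRA groups stood apart from the other 18: their scores on the first principal component of all genes were 50.1 to 61.2 against -26.8 to -9.44, and their values were less spread over genes, with an SD of 1.98 to 2.07 against 2.15 to 2.27. A comparison that sets any of those 6 arrays against others carries this difference, which cannot be told apart there from treatment or line. In ATRA against DMSO in siSCR the 6 arrays are set against each other, 3 on each side. Those sides also lay apart: scores on that component were 50.1 to 56.0 after DMSO and 59.0 to 61.2 after ATRA. The SD over genes was 2.04 to 2.07 after DMSO and 1.98 to 1.99 after ATRA. That shift cannot be told apart from the treatment.

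Averaged over the 34 members, the undifferentiated siSCR arrays were the highest of all, at log2 9.34 to 9.38. The undifferentiated siPRMT1 arrays followed at 8.90 to 8.97. All embryoid bodies were lower: 7.96 to 8.09 in siSCR and 7.79 to 7.83 in siPRMT1 at day 4, 7.85 to 7.95 and 7.71 to 7.78 after DMSO, and 7.90 to 7.95 and 7.73 to 7.87 after ATRA. The undifferentiated siSCR group was the highest of the 8 for 26 of the 34 members, and in 24 of these the undifferentiated siPRMT1 group came next. The exceptions were Col6a3 and Pdgfrb, where the siSCR ATRA group came next. The siSCR ATRA group was the highest for 6 members, all of narrow range: Col3a1, Col5a1, Col5a2, Col6a2, Lum and Tagln. Its arrays are among the 6 that stand apart, and these rankings cannot be told apart from what sets them apart. Mmp2 was highest in undifferentiated siPRMT1 cells and Fstl1 in siPRMT1 embryoid bodies at day 4. In whole-culture RNA, fewer cells of a type and less RNA per cell cannot be told apart.

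**Figure D1:**
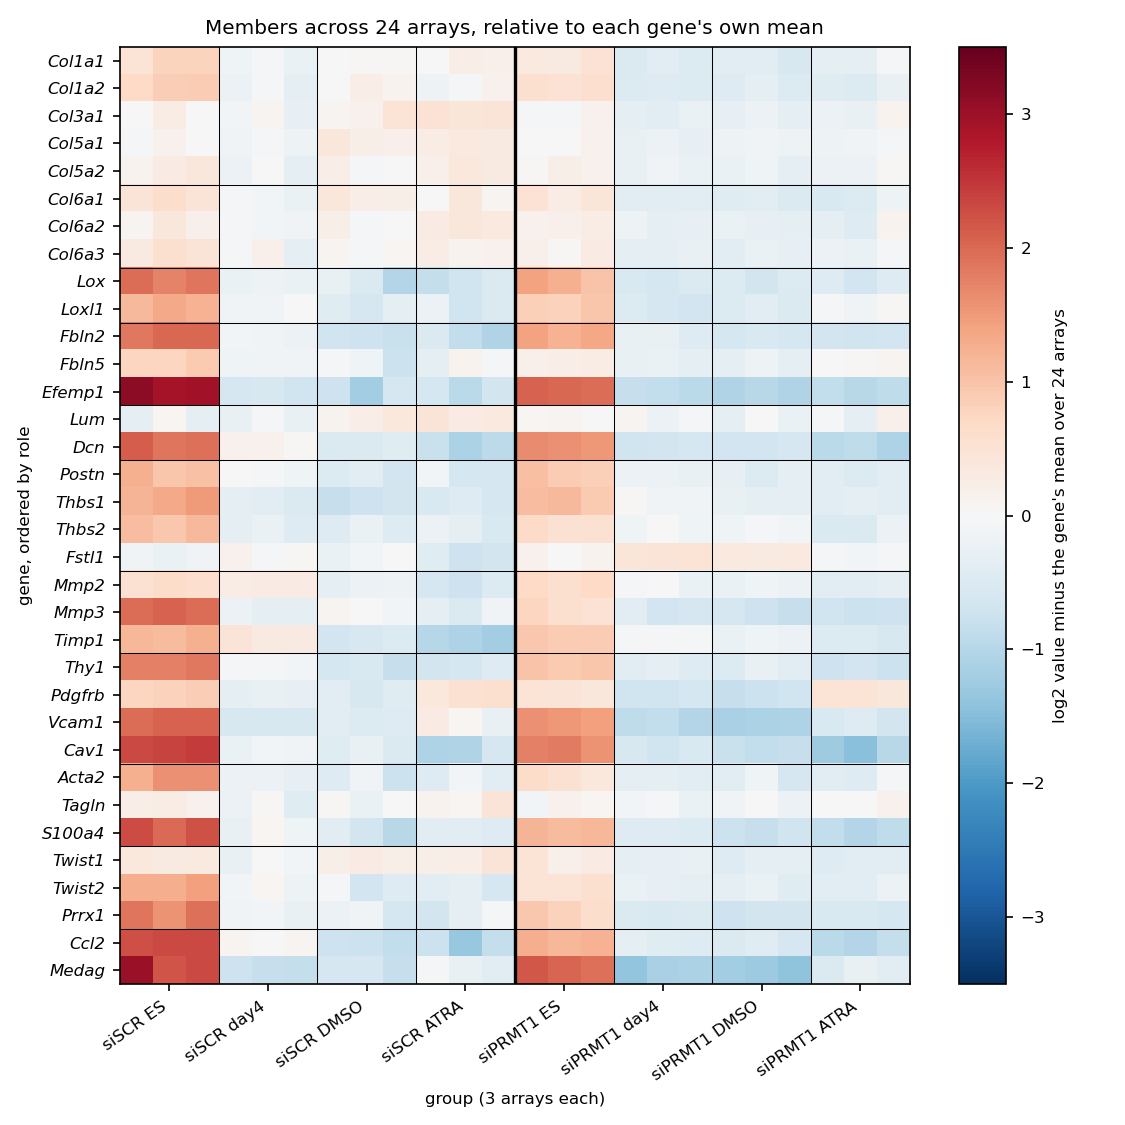
Log2 value of each of the 34 members on each of the 24 arrays, minus the gene's own mean over all arrays; genes run down by role, arrays run across by group, and the heavy line parts siSCR from siPRMT1. The undifferentiated siSCR group is the highest for 26 of the 34 genes, and the undifferentiated siPRMT1 group is next for 24 of them.

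The members differed in how far they ranged over the groups. The span between the highest and lowest group mean was 0.41 on the log2 scale for Tagln, an actin-binding protein of smooth muscle, and 4.02 for Efemp1, a fibulin of elastic fibres. Over the 8 group means the members tended to move together. Of the 561 pairs of members, 411 had a Pearson correlation above 0.5 and 13 below -0.5, with a median of 0.786. This is a description over 8 groups, and no correlation over all genes was computed beside it. For most members the undifferentiated groups were the highest, and the correlations include that step. They also include the siSCR DMSO and ATRA groups, whose arrays stand apart and in which Col3a1 was highest. The pair most alike was Thy1 and Ccl2 (0.995), followed by Fbln2 and Postn (0.994), and the pair least alike was Fstl1 and Col3a1 (-0.932). Mmp3 was most like Prrx1 (0.982), and Efemp1 was most like Lox (0.992). Of neighbours on a chromosome with no coding gene between them, Col6a1 and Col6a2 correlated at 0.896 and Col3a1 and Col5a2 at 0.838. Dcn and Lum on chromosome 10 correlated at -0.336, and Dcn had changes of over 2-fold that Lum lacked. Lum is among the dimmest 25% of genes, with group means of 4.68 to 5.24 and no known floor, so a fall in it could not be judged.

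In the undifferentiated cells, Prmt1 knockdown went with lower levels of most members. Of the 34 members, 22 were lower in siPRMT1 than in siSCR at a limma adjusted p under 0.05 and 1 was higher, while 11 did not pass. Among all 19938 genes 11.2% were lower and 7.63% higher. The median difference of the members was -0.36 on the log2 scale, that of all genes 0.01. The arrays of the 2 lines did not overlap for 22 members on the lower side, where 20% of all genes did so. The lower members ranged from -0.27 to -1.39, and 4 of them, Mmp3, Ccl2, S100a4 and Prrx1, were lower by at least 2-fold, where 0.381% of all genes passed the test and were at least 2-fold apart in either direction. The count of members passing stayed between 20 and 23 when any 1 of the 6 arrays was left out.

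Mmp3, a matrix protease that degrades proteoglycans and other matrix proteins, changed most. Its siSCR arrays read 9.40, 9.52 and 9.40 and its siPRMT1 arrays 8.20, 8.01 and 7.95. The siPRMT1 level was 38.3% of the control (log2 difference -1.39, SE 0.092, limma adjusted p = 3.74e-09), and the lines lay more than 1 log2 unit apart with no array between them. Ccl2, a chemokine that recruits monocytes, read 11.10, 11.17 and 11.15 in siSCR and 10.12, 10.00 and 10.07 in siPRMT1. Its difference was -1.07 (SE 0.10, adjusted p = 3.28e-07), and the replicates of each line were close together. S100a4, a calcium-binding protein known as fibroblast-specific protein, read 10.47, 10.17 and 10.43 in siSCR and 9.38, 9.30 and 9.34 in siPRMT1, a difference of -1.01 (SE 0.11, adjusted p = 1.33e-06). The lowest siSCR array of S100a4 was still above every siPRMT1 array.

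Prrx1, a homeobox factor of limb and craniofacial mesenchyme, read 9.69, 9.38 and 9.72 in siSCR and 8.74, 8.61 and 8.42 in siPRMT1. Its difference of -1.01 (SE 0.13, adjusted p = 1.09e-05) was as large as that of S100a4 with a wider spread. Efemp1, also called fibulin-3, read 10.72, 10.50 and 10.53 against 9.64, 9.59 and 9.54. The siPRMT1 level was 50.4% of the control (-0.99, SE 0.11, adjusted p = 3.25e-06). Acta2, the smooth muscle actin of myofibroblasts, read 9.16, 9.52 and 9.53 against 8.57, 8.45 and 8.30. Its difference was -0.96 (SE 0.15, adjusted p = 6.79e-05), and the first siSCR array was low within its group but above all siPRMT1 arrays.

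**Figure D2:**
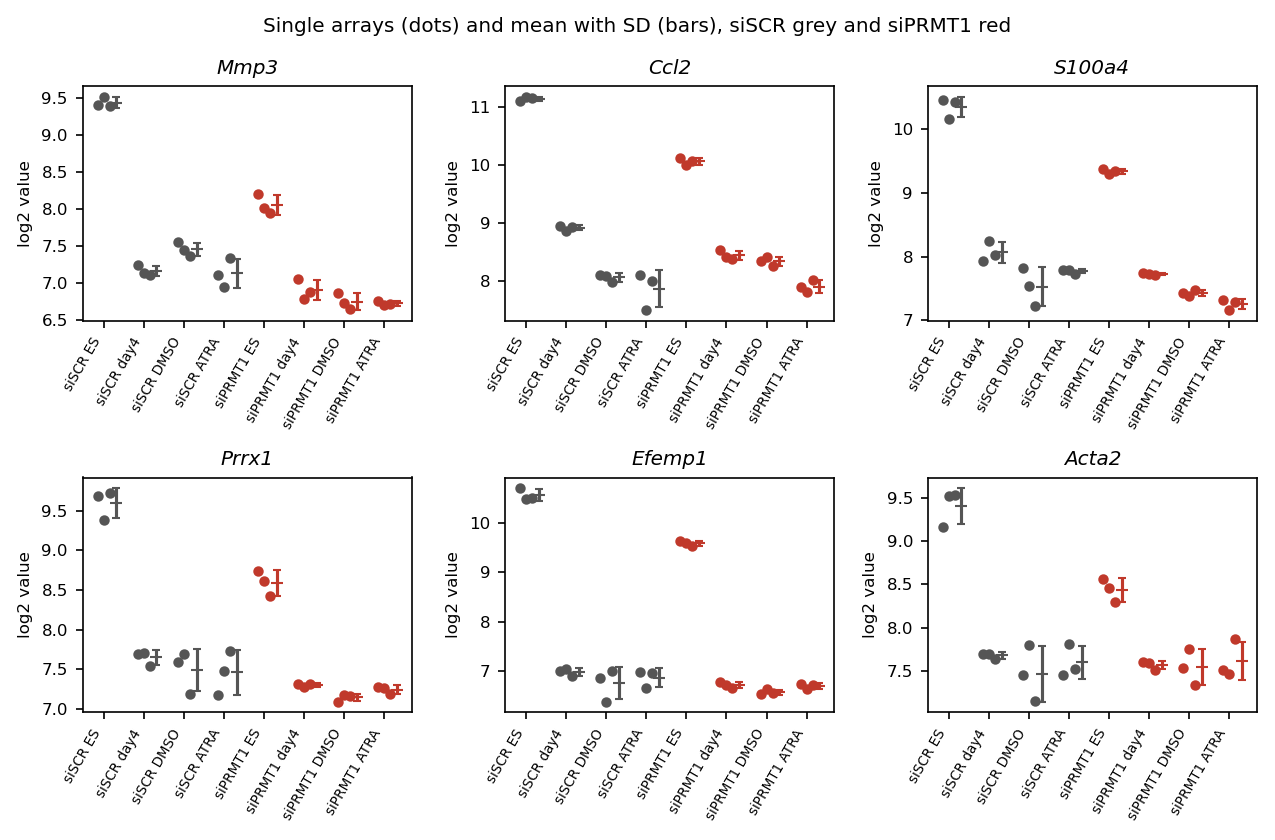
Log2 values of Mmp3, Ccl2, S100a4, Prrx1, Efemp1 and Acta2 on every array (dots) with the group mean and SD (bars), n = 3 arrays a group, siSCR in grey and siPRMT1 in red. In all 6 panels the undifferentiated siSCR arrays lie above the undifferentiated siPRMT1 arrays, and both lie above every embryoid body array.

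By role, few of the collagens passed. Of the fibrillar collagen genes 2 of 5 passed: Col1a1 (-0.30, SE 0.091, adjusted p = 0.022) and Col1a2 (-0.28, SE 0.086, adjusted p = 0.0272), the chains of type I collagen. Each lost its call without siSCR replicate 2 or 3 or siPRMT1 replicate 1 or 2, and Col1a1 also with only the groups compared. Col3a1 (-0.06), Col5a1 (0.00) and Col5a2 (-0.14) did not, nor did any of the 3 collagen VI genes, whose differences ran from -0.03 for Col6a2 to -0.29 for Col6a3. Col6a3 lay at the threshold (adjusted p = 0.0503) and passed in 7 of 16 alternatives. In contrast, both lysyl oxidase genes, Lox (-0.64) and Loxl1 (-0.36, not passing without siSCR replicate 2), were lower, as were all 3 elastic fibre genes, with Fbln2 at -0.63 and Fbln5 at -0.59 beside Efemp1. Dcn, the small proteoglycan decorin, was at -0.40 and passed, and its neighbour Lum, lumican, was at 0.24 and did not.

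Among the matricellular genes, which encode secreted proteins that bind matrix and cells without building fibres, Thbs1 (-0.30) and Thbs2 (-0.48), the thrombospondins, were lower, and Thbs1 lost its call with only the groups compared and without replicate 3 of either line. Postn, periostin, was at -0.15 and did not pass. Fstl1, a secreted follistatin-like glycoprotein, was the 1 member that rose, by 0.25 (SE 0.072, adjusted p = 0.017). It did not pass with centred arrays, or without siSCR replicate 2 or siPRMT1 replicate 1 or 3. Timp1, an inhibitor of matrix metalloproteinases, fell by 0.27, while Mmp2, the gelatinase, stood at 0.07 with adjusted p = 0.623. All 4 surface genes were lower: Thy1 at -0.83, Cav1 (caveolin) at -0.65, Vcam1 (an adhesion molecule for leukocytes) at -0.52 and Pdgfrb (a receptor for platelet-derived growth factor) at -0.37. Of the Twist pair, Twist2 was lower at -0.82 and Twist1 was at -0.02 with adjusted p = 0.929. Medag, a gene tied to fat cell development, was lower at -0.46, but not with only the groups compared, nor without siSCR replicate 1 or siPRMT1 replicate 2 or 3. Tagln at -0.18 did not pass.

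Other gene lists showed what else moved beside the members in these cells. Of 17 other mesenchymal matrix and surface genes 11 were lower and 0 higher, led by Cdh2 (-1.09) and Cdh11 (-1.06), both cadherins. Of 13 targets of the actin and serum response factor axis 6 were lower and 0 higher, with Cnn2, a calponin, at -0.49. Of 11 other mesenchymal transcription factors 4 were lower and 0 higher, with Snai2, the factor Slug, at -0.62. Of 16 genes of the TGF-beta pathway 7 were lower and 2 higher. There the ligand gene Tgfb3 was at -0.89 while Ccn2, a TGF-beta and YAP target, rose by 0.91. Basement membrane genes went the other way, with 4 of 14 higher and 1 lower, Col4a2 at 0.31, and with array weights 6 higher and 2 lower.

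Markers of other cell types were set beside this. Of 9 pluripotency genes 5 were higher and 0 lower in siPRMT1, with Klf4 at 0.55. That count was 1 with the arrays centred on their medians, 2 with only the groups compared and 3 without siSCR replicate 2 or without siPRMT1 replicate 1 or 3. Of the 14 members that mark fibroblasts and feeder cells 9 were lower and 0 higher. Their mean level in the undifferentiated cells was 9.27 to 9.32 in siSCR and 8.84 to 8.91 in siPRMT1, and in day 4 embryoid bodies it was 8.03 to 8.22 and 7.82 to 7.85. None of these array values is a count of cells. The part of feeder cells carried over in the result was not tested.

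At day 4 fewer members passed and the differences were smaller. In siPRMT1 embryoid bodies 12 of the 34 members were lower than in siSCR and 2 were higher, where 7.01% of all genes were lower and 11.4% higher. The median of the members was -0.26 against -0.02 for all genes, and none differed by 2-fold. The arrays did not overlap for 25 members on the lower side, against 19.1% of all genes. Of the 22 members lower in undifferentiated cells 11 were also lower here, which was 11 of the 12 lower at day 4. These 11 include Col1a1, Col1a2, S100a4 and Cav1, whose calls were lost when some of the arrays were left out. The exception, Mmp2, was lower at day 4 only by its call. With array weights 22 members passed, 3 higher and 19 lower, while the share of all genes passing went from 18.4% to 30.6%. Without the 6 siSCR arrays that stand apart 21 passed, 3 higher and 18 lower, with 25.6% of all genes. With only the groups compared 20 passed at day 4, 3 higher and 17 lower, with 20.6% of all genes. In undifferentiated cells that fit also gave 20, with 16.3% of all genes, so the lower count at day 4 depends on the fit.

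Dcn showed the largest difference at day 4. Its siSCR arrays read 9.21, 9.21 and 9.08 and its siPRMT1 arrays 8.35, 8.40 and 8.44, a difference of -0.77 (SE 0.079, limma adjusted p = 6.92e-07). The lines did not overlap, and the gap was wider than for Dcn in the undifferentiated cells, where it was -0.40. Loxl1 read 8.33, 8.34 and 8.45 against 7.98, 7.86 and 7.79 (-0.50, SE 0.096, adjusted p = 0.000812). Ccl2 read 8.95, 8.87 and 8.93 against 8.54, 8.41 and 8.39 (-0.47, SE 0.10, adjusted p = 0.00251). Both genes kept the order of the lines seen before aggregation, at lower levels. Cav1 read 7.71, 7.85 and 7.82 against 7.39, 7.25 and 7.42 (-0.44, SE 0.12, adjusted p = 0.0116). It no longer passed without the second siSCR array (adjusted p = 0.0519) or the second siPRMT1 array (adjusted p = 0.0611).

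Timp1 read 11.41, 11.25 and 11.24 in siSCR and 10.89, 10.88 and 10.88 in siPRMT1 at day 4 (-0.42, SE 0.064, adjusted p = 7.69e-05). Fstl1 read 11.03, 10.84 and 10.91 against 11.28, 11.33 and 11.34 (0.39, SE 0.072, adjusted p = 0.000543). Fstl1 was the member called higher in both states, and Lum, at 0.24 and 0.14, passed in neither. Thbs1 read 8.28, 8.23 and 8.13 against 8.67, 8.51 and 8.51 (0.35, SE 0.074, adjusted p = 0.0018), the reverse of its order in undifferentiated cells. Of the 6 leading members of the undifferentiated comparison, Ccl2 passed under every alternative run at day 4, and Acta2 (-0.11, adjusted p = 0.671) under none. S100a4 (-0.35, adjusted p = 0.0308) lost its call in 8 of 16 alternatives, namely all 3 other scalings and 5 of the 6 fits that leave out 1 array, all but that without siSCR replicate 1. Mmp3 (-0.25, adjusted p = 0.0599) and Prrx1 (-0.35, adjusted p = 0.0638) did not pass, and each did in 5 of the 16, and Efemp1 (-0.26, adjusted p = 0.133) in 3. The calls thus do not part S100a4 from Mmp3 and Prrx1 at day 4.

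**Figure D3:**
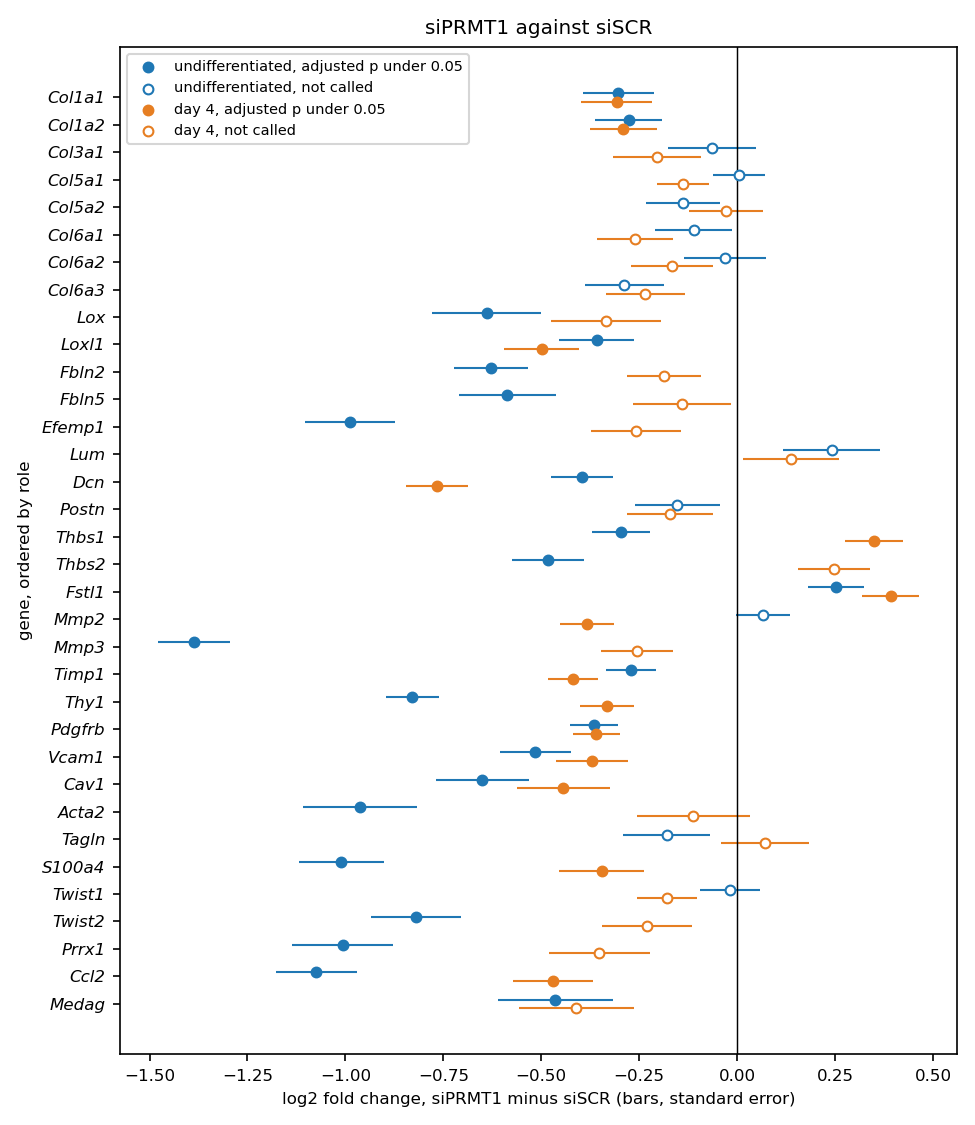
Log2 difference between siPRMT1 and siSCR for each of the 34 members in undifferentiated cells (blue) and at day 4 (orange), with the standard error of the fit as bars; filled points passed an adjusted p under 0.05. Most points lie left of 0, with Mmp3 farthest out at -1.39, and Fstl1 lies right of 0 in both states.

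Other gene lists stood differently at day 4. Of 9 visceral endoderm markers 8 were higher in siPRMT1 and 0 lower, with Apoa1, an apolipoprotein, at 1.70 and Ttr, transthyretin, at 1.33. All 9 parietal endoderm markers were higher, with Plat, tissue plasminogen activator, at 1.32. The summed level of the visceral endoderm markers was log2 12.9 to 13.1 in siSCR and 13.9 to 14.0 in siPRMT1. Basement membrane genes were higher for 7 of 14 and lower for 1, led by Lamb1 (0.88), and 7 of 12 measured genes of collagen folding and processing were higher and 0 lower, among them Serpinh1 (0.49), the collagen chaperone. The other mesenchymal matrix and surface genes were split, with 3 higher and 4 lower of 17, Pdgfra being at 0.85 and Fn1, fibronectin, at -0.51. What the rise in endoderm markers contributes to the lower share of members was not tested.

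The drop from undifferentiated cells to embryoid bodies was larger than the difference between the lines. In siSCR cells 30 of the 34 members were lower at day 4 than in undifferentiated cells and 1 was higher, where 13.7% of all genes were lower and 14.5% higher. In siPRMT1 cells 31 were lower and 1 higher, where 18.4% were lower and 23% higher. The members' median was -1.23 in siSCR and -0.99 in siPRMT1, against 0.00 and -0.04 for all genes. In siSCR 19 members fell by at least 2-fold, where 2.76% of all genes passed and changed by that much in either direction. In siPRMT1 17 members did, where 3.28% of all genes did. Lower in both lines were 29 members, which is 29 of the 30 in siSCR and 29 of the 31 in siPRMT1. Fstl1 rose in both, by 0.21 and 0.35, and in siSCR that call was lost in 5 of 16 alternatives: with only the groups compared, and without undifferentiated replicate 2 or 3 or day 4 replicate 1 or 3. Both knockdown comparisons and both day 4 comparisons use the same undifferentiated and day 4 arrays.

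Efemp1 fell most in siSCR, from the 10.72, 10.50 and 10.53 given above to 7.00, 7.03 and 6.88, a 12.2-fold drop (log2 -3.61, SE 0.11, limma adjusted p = 3.13e-15). In siPRMT1 it ended at 6.77, 6.72 and 6.65 (-2.88, adjusted p = 5.18e-14). The day 4 levels of the lines were thus closer together than their undifferentiated levels. Medag went from 10.08, 9.27 and 9.38 to 6.33, 6.27 and 6.24 in siSCR, a 9.85-fold drop (-3.30, SE 0.15, adjusted p = 3.62e-13). In siPRMT1 it went from 9.25, 9.10 and 9.00 to 5.70, 5.94 and 5.97 (-3.25, adjusted p = 3.93e-13). The first siSCR array of Medag was high within its group. Vcam1 went from 10.51, 10.64 and 10.63 to 8.01, 7.99 and 7.99 in siSCR (-2.59, SE 0.091, adjusted p = 1.19e-14) and changed by -2.45 in siPRMT1.

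Cav1 fell in siSCR from 10.25, 10.31 and 10.41 to 7.71, 7.85 and 7.82 (-2.53, SE 0.12, adjusted p = 8.85e-13) and changed by -2.32 in siPRMT1. Mmp3 and S100a4 each dropped by 2.28 in siSCR, to 7.24, 7.14 and 7.10 and to 7.93, 8.25 and 8.03. In no array of either gene did a day 4 value reach an undifferentiated one. In siPRMT1 the next largest drops were in Dcn, from 10.69, 10.63 and 10.55 to 8.35, 8.40 and 8.44 (-2.23, SE 0.079, adjusted p = 1.01e-14), and Lox, from 8.39, 8.22 and 7.99 to 6.45, 6.38 and 6.48 (-1.76, SE 0.14, adjusted p = 2.16e-09). Col1a1 and Col1a2 changed by -0.84 and -0.999 in siSCR and by -0.84 and -1.01 in siPRMT1, while the 3 collagen VI genes changed by -0.31 to -0.63 and by -0.45 to -0.78. Lum passed in neither line, and Col3a1 and Col5a1 passed in siPRMT1 only (-0.31 and -0.29), a difference between lines that did not pass for either gene. Col3a1 lost that call under all 3 other scalings, and without siPRMT1 undifferentiated replicate 3 or day 4 replicate 1 or 2. Col6a2 in siSCR lost its call in 5 of the 6 fits that leave out 1 array, all but that without undifferentiated replicate 1.

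**Figure D4:**
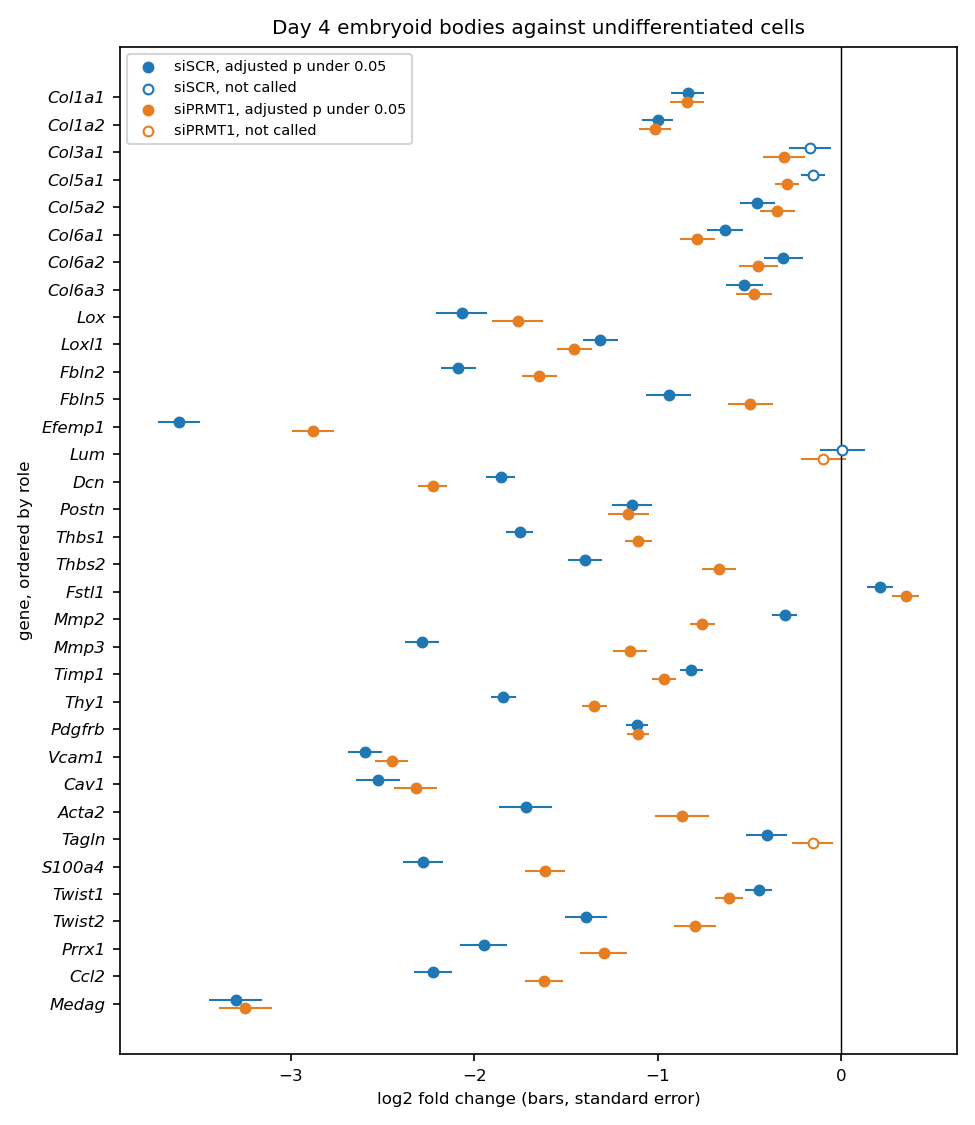
Log2 change from undifferentiated cells to day 4 embryoid bodies for each of the 34 members in siSCR (blue) and siPRMT1 (orange), with the standard error of the fit as bars; filled points passed an adjusted p under 0.05. Efemp1 and Medag lie farthest left, the 8 collagens lie between -0.15 and -1.01, and Fstl1 is right of 0 in both lines.

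The change at day 4 differed between the lines for 13 members by the interaction term of the limma fit. In 11 of them the drop was smaller in siPRMT1 and in 2 it was larger, where 15% and 8.83% of all genes passed on those sides. The lines differed most in Mmp3, which changed by -2.28 in siSCR and -1.15 in siPRMT1 (difference 1.13, SE 0.13, adjusted p = 2.26e-06), and Acta2, which changed by -1.72 and -0.87 (difference 0.85, adjusted p = 0.00423). Thbs2 changed by -1.40 and -0.67, Efemp1 by -3.61 and -2.88, S100a4 by -2.28 and -1.61, and Prrx1 by -1.95 and -1.29. Dcn and Mmp2 went the other way, with a larger drop in siPRMT1: -2.23 against -1.85 for Dcn and -0.76 against -0.31 for Mmp2. The call for Dcn was lost with quantile normalization, with centred arrays and without siSCR undifferentiated replicate 2. That for Fbln2, whose drop was smaller in siPRMT1, was lost in 4 of 22 alternatives. These were the fits without siSCR day 4 replicate 3, siPRMT1 undifferentiated replicate 2 and siPRMT1 day 4 replicate 1 or 2. The interaction terms use the same 12 arrays as the comparisons above, so a gene that was lower in undifferentiated siPRMT1 cells and near the control at day 4 appears in both.

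Some of the lists around the members also fell at day 4 in siSCR, and others rose. Of the 17 other mesenchymal matrix and surface genes 11 were lower and 0 higher, with Cdh11 at -1.92. The other mesenchymal transcription factors were lower for 7 of 11, with Snai2 at -0.91 and Zeb2 at -0.83. Basement membrane genes instead were higher for 10 of 14, Col4a2 at 0.82, and 8 of 9 visceral endoderm markers were higher, Ttr at 3.19. Of 12 measured genes of collagen folding and processing 6 were higher and 2 lower. Of the 9 pluripotency markers 2 were higher and 1 lower.

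After DMSO the lines differed for most genes on the array, so counts of members say little. Of the 34 members 16 were lower in siPRMT1 and 6 higher, where 34.6% of all genes were lower and 31.3% higher. After ATRA 14 were lower and 4 higher, where 38% and 32.2% were. These comparisons set siPRMT1 arrays against the 6 siSCR arrays that stand apart. With the arrays centred on their medians, which moves the median difference of all genes from -0.09 to 0.02 after DMSO and from -0.11 to 0.03 after ATRA, 6 members were higher and 12 lower after ATRA.

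All 8 collagen genes were lower in siPRMT1 in both treated states, by 0.29 to 0.71 after DMSO and by 0.34 to 0.57 after ATRA. After DMSO 7 of the 8 passed with quantile normalization, with centred arrays and with arrays scaled to the same SD, and after ATRA 7 passed with centred arrays. Col6a1, a chain of the microfibrillar collagen VI, read 8.75, 8.59 and 8.57 in siSCR and 7.94, 7.99 and 7.85 in siPRMT1 after DMSO (-0.71, SE 0.098, limma adjusted p = 2.37e-06). After ATRA it read 8.36, 8.74 and 8.44 against 7.82, 7.88 and 8.17 (-0.56, adjusted p = 4.61e-05). The lines did not overlap in either state. Col3a1 read 8.61, 8.54 and 8.57 against 7.91, 7.86 and 8.24 after ATRA (-0.57, adjusted p = 0.00018), and Col6a2 differed by -0.55 there. In the untreated day 4 bodies Col3a1, Col6a1 and Col6a2 had not passed, at -0.21, -0.26 and -0.17. The treated siSCR arrays are those that stand apart, so this contrast with day 4 cannot be told apart from what sets them apart.

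Twist1 read 7.94, 8.03 and 7.93 in siSCR and 7.29, 7.39 and 7.39 in siPRMT1 after DMSO (-0.61, SE 0.076, adjusted p = 6.57e-07). After ATRA it read 7.95, 7.98 and 8.20 against 7.27, 7.36 and 7.35 (-0.71, adjusted p = 5.94e-08). The lines lay well apart in both treated states, whereas Twist1 had differed by -0.18 at day 4 without passing. From day 4 to DMSO and ATRA its mean went 7.62, 7.96 and 8.04 in siSCR, and 7.44, 7.36 and 7.33 in siPRMT1. The treated siSCR arrays are those that stand apart, so treatment and what sets them apart cannot be told apart here. Mmp3, Vcam1 and Medag were also lower after DMSO, at -0.71, -0.66 and -0.64, and after ATRA Vcam1 was at -0.57 and Medag at -0.14. Timp1 changed order between states: it was lower in siPRMT1 at day 4, and higher after DMSO (0.37) and ATRA, where it read 9.94, 9.85 and 9.72 in siSCR and 10.47, 10.46 and 10.37 in siPRMT1 (0.59, SE 0.064, adjusted p = 6.73e-08). From day 4 to DMSO and ATRA its mean went 11.30, 10.38 and 9.84 in siSCR, and 10.88, 10.75 and 10.43 in siPRMT1. This change of order involves the siSCR arrays that stand apart, and cannot be told apart from what sets them apart. Fstl1 was higher in siPRMT1 in both, at 0.44 and 0.53. Mmp2 passed as higher after ATRA at 0.23, a sign that turned with quantile normalization.

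The DMSO groups were compared with the untreated day 4 bodies of the same line. In siPRMT1 0 members passed in either direction, where 0.155% of all genes were lower and 0.306% higher, and 3 members had an unadjusted p under 0.05 in limma. In siSCR 13 members were lower and 8 higher, where 30.3% and 30.8% of all genes were. Timp1 fell by 0.92, from 11.41, 11.25 and 11.24 to 10.28, 10.39 and 10.48, and Ccl2 fell by 0.85, from 8.95, 8.87 and 8.93 to 8.11, 8.10 and 7.98. Thy1 (-0.61), Dcn (-0.60), Fbln2 (-0.59) and S100a4 (-0.54) followed, while 5 of the 8 collagen genes were higher, Col6a1 by 0.41. Since these DMSO arrays are among the 6 that stand apart, the vehicle and whatever sets those arrays apart cannot be told apart here. With array weights 7 members were lower in siPRMT1, where 12.7% of all genes passed against 0.461% without them.

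Retinoic acid changed a minority of the members against DMSO, and only 1 of the changes, that of Pdgfrb in siPRMT1, reached 2-fold. In siSCR 3 of the 34 members were higher and 6 lower, where 11.2% and 12.2% of all genes were. In siPRMT1 4 were higher and 7 lower, where 6.05% and 5.94% were. In siSCR the members' share was close to the background. There the DMSO and ATRA arrays also lay apart on the first principal component and in spread over genes, which cannot be told apart from the treatment. Both lines had 3 members higher in common, Pdgfrb, Vcam1 and Medag, which are 3 of the 3 in siSCR and 3 of the 4 in siPRMT1. They had 4 lower in common, Dcn, Fstl1, Timp1 and Cav1, out of 6 and 7. Of these shared calls, Medag in siSCR and Cav1 in siPRMT1 were often lost under the alternatives. The counts moved with the samples in the fit: 2 members passed in siSCR when only the 6 arrays compared were fitted, where the share of all genes passing fell from 23.4% to 2.73%. With array weights 17 passed in siPRMT1, 8 higher and 9 lower, where that share rose from 12% to 38.3%.

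Pdgfrb rose most in both lines. In siSCR it went from 7.97, 7.79 and 7.92 after DMSO to 8.73, 8.90 and 8.93 after ATRA, a 1.94-fold rise (log2 0.96, SE 0.061, limma adjusted p = 6.34e-10). In siPRMT1 it went from 7.54, 7.62 and 7.68 to 8.85, 8.85 and 8.75, a 2.30-fold rise (1.20, adjusted p = 1.04e-11). The ATRA arrays of both lines sat just below or at the undifferentiated levels of Pdgfrb, which were 9.11 to 9.23 in siSCR and 8.77 to 8.83 in siPRMT1. The difference between the rises, 0.24, did not pass (SE 0.086, adjusted p = 0.136).

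Medag was higher by 0.42 in siSCR (adjusted p = 0.0439), a call lost in 10 of 15 alternatives: all 3 other scalings, array weights, only the groups compared and 5 of the 6 fits that leave out 1 array, all but that without ATRA replicate 3. In siPRMT1 it rose by 0.92, from 5.86, 5.81 and 5.65 to 6.57, 6.80 and 6.69 (SE 0.15, adjusted p = 0.00013). The difference between these rises, 0.50, did not pass (SE 0.21, adjusted p = 0.213). Vcam1 rose by 0.47 in siSCR, from 8.17, 8.07 and 8.12 to 8.84, 8.63 and 8.31, and by 0.57 in siPRMT1, from 7.43, 7.47 and 7.48 to 8.03, 8.12 and 7.93. In each line the ATRA arrays of Vcam1 all lay above the DMSO arrays. Loxl1 rose in siPRMT1 by 0.40 and stood at -0.03 in siSCR, a difference of 0.43 with adjusted p = 0.0895.

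Among the members that fell, Timp1 dropped by 0.54 in siSCR, from 10.28, 10.39 and 10.48 to 9.94, 9.85 and 9.72, and by 0.32 in siPRMT1. Fstl1 dropped by 0.48 in siSCR, from 10.64, 10.77 and 10.86 to 10.45, 10.15 and 10.22, and by 0.40 in siPRMT1, from 11.20, 11.18 and 11.22 to 10.81, 10.77 and 10.82. Cav1 dropped by 0.50 and 0.40, and Dcn by 0.46 and 0.33. All of these kept apart on the arrays, but in siSCR Cav1, Fstl1, Vcam1 and Dcn no longer passed when only the 6 arrays compared were fitted (adjusted p = 0.112, 0.0653, 0.109 and 0.0684), and Cav1 in siSCR did not pass with array weights (adjusted p = 0.0729). In siPRMT1 Cav1 lost its call with only the groups compared and in 5 of the 6 fits that leave out 1 array, all but that without ATRA replicate 3, and Dcn lost it without ATRA replicate 3. Ccl2 fell in siPRMT1 by 0.43, from 8.35, 8.41 and 8.25 to 7.90, 7.81 and 8.02. None of the 8 collagen genes passed in either line.

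**Figure D5:**
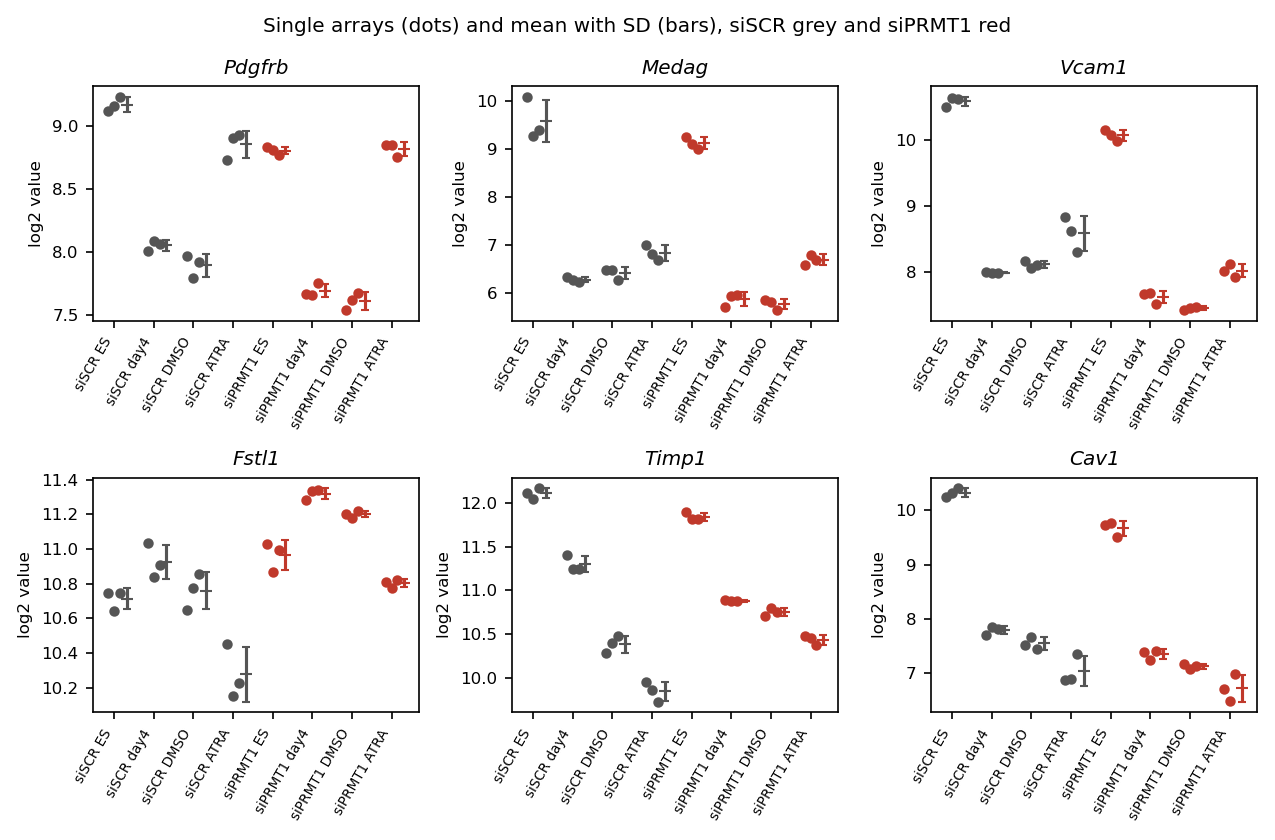
Log2 values of Pdgfrb, Medag, Vcam1, Fstl1, Timp1 and Cav1 on every array (dots) with the group mean and SD (bars), n = 3 arrays a group, siSCR in grey and siPRMT1 in red. Pdgfrb, Medag and Vcam1 are higher after ATRA than after DMSO in both lines, and Fstl1, Timp1 and Cav1 are lower.

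The response to ATRA differed between the lines for 1 of the 34 members, Thy1, where 1.32% of all genes passed on that side and 1.92% on the other. With 3.24% of all genes passing in either direction, 1 of 34 members is near the background. The siSCR change in this term is taken within the 6 arrays that stand apart, so what sets them apart cannot be told apart here from line. Thy1, a glycoprotein anchored on the surface of fibroblasts and neurons, read 8.11, 8.18 and 7.91 after DMSO and 8.09, 8.11 and 8.27 after ATRA in siSCR. In siPRMT1 it read 8.26, 8.46 and 8.36 and then 8.00, 8.04 and 7.96. The siSCR arrays overlapped and the siPRMT1 arrays did not, and the difference of responses was -0.45 (SE 0.097, limma adjusted p = 0.0139). It did not pass with array weights (adjusted p = 0.0501), with only the groups compared (adjusted p = 0.141) or without the second siPRMT1 DMSO array (adjusted p = 0.0531).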

How the data were processed

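Total RNA, 300 ng a sample, was labelled as biotinylated cDNA for 24 Affymetrix arrays, per the labels' protocols. The authors deposited 1 log2 value per probe set and array, with a base taken from their range (minimum 2.14, maximum 14.5). For the summarisation and normalization of the probes, the method was not given in the sources used here, and no detection calls were used. Of 35556 probe sets 21789 named 1 gene symbol, 1621 several and 12146 none. The brightest set over the 24 arrays was kept for each of 19938 genes. Levels of different sets were set beside each other in that choice, in ranking dim genes and in array-wide measures. They were also averaged or summed over members and gene lists. Otherwise levels are compared within a gene only.

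A model of 8 group means was fitted to all genes and 24 arrays by lmFit and eBayes of limma 3.58.1 (R 4.3.3), which left 16 residual degrees of freedom, and the script was tested on simulated data. P-values were adjusted by Benjamini and Hochberg over all genes of each of 12 comparisons, and a gene was called at an adjusted p under 0.05. The median standard error of a difference was 0.093 log2 units. The number of arrays, 3 a group, limits the precision. Replicate numbers were not used to pair the samples in this fit, since the labels state no pairing. Deviations of same-numbered arrays correlated at -0.502 to 0.508, which cannot decide whether samples were paired.

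The members, gene lists and tests were chosen with earlier results of these data known. Values on every array are given for up to 6 members a comparison, those with the largest absolute change among members that passed and whose arrays did not overlap; for differences of responses the test alone counted. Members given in addition were chosen after their values were seen. Other genes are named from the lists, up to 3 a list and comparison. Alternatives were a replicate block, 3 scalings, the mean of a gene's sets, a filter on the dimmest 25% of genes, trend and robust variance, array weights, a fit of only the groups compared and leaving out each array. Added after the data were seen was a fit leaving out the 6 siSCR arrays given DMSO or ATRA. Promoter sequences are RefSeq's for GRCm38.p6.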

Additional observations from a re-analysis of the deposited data

Results flagged for a closer look

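The change from undifferentiated cells to day 4 embryoid bodies differed between the lines for 13 members, by the interaction term of the limma fit. As the change in siPRMT1 minus the change in siSCR, on the log2 scale, it was 1.13 for Mmp3, 0.85 for Acta2, 0.73 for Efemp1, 0.73 for Thbs2, 0.67 for S100a4, 0.65 for Prrx1, 0.65 for Thbs1, 0.60 for Ccl2, 0.59 for Twist2, 0.50 for Thy1 and 0.44 for Fbln2. It was -0.45 for Mmp2 and -0.37 for Dcn, both of which fell further in siPRMT1. All genes passed on the same sides at 15% and 8.83%. The calls for Fbln2 and Dcn were lost in 4 and 3 of 22 alternatives. The change from DMSO to ATRA differed between the lines for Thy1 alone among the 34 members, by -0.45, where 3.24% of all genes passed in either direction. That share of members is near the background.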

How the results depend on the processing

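Each count of members that passed was recomputed under every alternative. With array weights it was 22 for the lines at day 4 (14 in the fit as reported), 7 for DMSO against day 4 in siPRMT1 (0) and 17 for ATRA in siPRMT1 (11), while the share of all genes passing rose to 30.6%, 12.7% and 38.3%. With only the groups compared it was 1 for DMSO in siPRMT1 (0), 2 for ATRA in siSCR (9) and 0 for the difference of the ATRA responses (1). Leaving out 1 array at a time gave 20 to 23 for the lines in undifferentiated cells, 10 to 15 at day 4, 19 to 22 after DMSO and 17 to 21 after ATRA. For day 4 against undifferentiated cells it gave 28 to 32 in siSCR and 31 to 32 in siPRMT1, and 12 to 13 for their difference. For DMSO against day 4 it gave 18 to 22 in siSCR and 0 in siPRMT1, and for ATRA 7 to 11 and 9 to 10. For the difference of the ATRA responses it gave 0 to 2. That count was 0 without the second siPRMT1 DMSO array, and 2 without the first siSCR DMSO array, the first or second siSCR ATRA array or the third siPRMT1 ATRA array. The cause of these shifts was not tested.

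With the replicate number as a block the counts were 16 for the lines at day 4 (14 in the fit as reported) and 22 for DMSO against day 4 in siSCR (21). The other counts, among them 23 in undifferentiated cells, did not move. The labels do not say that equal numbers belong together. Without the 6 siSCR arrays, a fit chosen after seeing the data, the lines at day 4 gave 21 and ATRA in siPRMT1 12. With centred arrays the lines at day 4 gave 3 higher and 10 lower, and with quantile normalization 3 and 8. Of 993 recomputed values of members named by the rule, 983 kept their direction and side of the threshold, 10 lost the call and 0 turned. Calls outside that rule were less stable. Over all 195 calls of members in the 12 comparisons, 163 of 3127 recomputed calls were lost, and 47 of the 195 were lost at least once, among them S100a4 between the lines at day 4, Medag after ATRA in siSCR and Cav1 after ATRA in siPRMT1. Mmp2 after ATRA turned with quantile normalization. Of 1118 recomputed counts of gene lists 1047 stayed within 1.5 times, and the lower level of Prmt1 passed under every alternative run. Signal over background was not measured, so values of dim genes such as Lum have no known floor.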
